A study of Mus musculus with 11 samples.

Results

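The serpins are a family of protease inhibitors, and 47 mouse serpin genes of clades A to I were followed here across normal stomach and 2 kinds of gastric tumour. A gene was taken where a probe set carried a single symbol made of Serpin, a clade letter, a number and any copy letter. Of the 19938 genes that had a probe set with a single symbol, 47 met this rule. Where a gene had several such probe sets, 1 was to be chosen by its measured mean over the 11 arrays, the highest being kept, but each of the 47 had exactly 1. Clade A held 14 genes and clade B held 24. Clades F and I held 2 genes each, and clades C, D, E, G and H held 1 each. Of clade E, only Serpine3 was analysed here.

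Most serpins present a flexible reactive loop that a target protease cuts as if it were a substrate. The protease is then trapped and distorted, which destroys the inhibitor and the enzyme together. Clade A holds secreted plasma inhibitors made mainly by the liver, whereas clade B holds mostly intracellular inhibitors that protect cells from leaked proteases. Serpinc1 is antithrombin, Serpind1 is heparin cofactor II, Serping1 is the C1 inhibitor of the complement and contact systems, Serpinf2 is the plasmin inhibitor alpha-2-antiplasmin, and Serpinh1 is Hsp47, a collagen chaperone that inhibits no protease.

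RNA from 11 mouse stomach samples was measured on Affymetrix arrays, 1 array a sample. Normal gastric epithelium, called NGE, came from Pdx1-1-Cre-negative mice (n = 4). Diffuse-type gastric cancers came from mice that carried Pdx-1-Cre with Cdh1F/+, Trp53F/F and Smad4F/F, called pChePS_GC (n = 4), and from mice that carried Pdx-1-Cre with Cdh1F/F and Trp53F/F, called pCP_GC (n = 3). In these mice Cre recombinase is driven by the promoter of Pdx1, which is active in the distal stomach, the duodenum and the pancreas. Both tumour groups carry Pdx-1-Cre and Trp53F/F, and they differ in Cdh1 and in Smad4, so the effects of these 2 genes cannot be told apart. The labels give no age, no sex, and no floxed alleles for the NGE mice, and do not say whether each sample is a mouse of its own. The p-values therefore measure only the spread between these samples, which may be technical. Values are on the deposited log2 scale, on which a step of 1 is 2-fold.

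The tumour arrays held markers of other cells than the NGE arrays. The array mean of 8 fibroblast markers ran from 7.39 to 7.59 on the NGE arrays, from 10.51 to 11.30 on those of pChePS_GC and from 10.38 to 11.42 on those of pCP_GC. For 8 macrophage markers the ranges were 7.35 to 7.57, 10.53 to 11.16 and 10.10 to 11.27, and for 8 endothelial markers 7.23 to 7.35, 9.69 to 10.67 and 9.58 to 10.11. Parietal and chief cell markers, which define the glands of the gastric body, had means of 12.86 to 13.32 in NGE, 7.60 to 8.84 in pChePS_GC and 7.89 to 10.59 in pCP_GC. Xist was 11.54 to 12.66 in NGE and 5.57 to 6.02 in the tumours, while the Y-linked Eif2s3y was 4.94 to 5.19 in NGE and 8.08 to 11.09 in the tumours. Sex-linked expression and tissue group cannot be told apart in these arrays.

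Of the 47 serpin genes, 18 passed at an adjusted p under 0.05 with limma in pChePS_GC against NGE, beside 42.1% of all genes tested: 7 rose and 11 fell, beside 18.7% and 23.4%. In pCP_GC against NGE 22 passed, beside 51.8% of all genes: 9 rose and 13 fell, beside 20.0% and 31.8%. As shares of the family these counts were 14.9% and 23.4%, then 19.1% and 27.7%, so they lay near or below the share of all genes in both comparisons. The median serpin change was -0.12 in pChePS_GC and -0.13 in pCP_GC, beside -0.10 and -0.12 over all genes. A few serpins made up the large changes. At least 2-fold higher were 5 in pChePS_GC, or 10.6% of the family beside 6.98% of all genes, and 8 in pCP_GC, or 17% beside 8.13%. In each group 1, or 2.13%, was at least 2-fold lower, beside 3.34% and 2.83% of all genes. The 2 comparisons share the NGE arrays, so their likeness is not independent.

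Many serpin probe sets read no higher than genes of the olfactory and vomeronasal receptors, which are used mainly by sensory neurons of the nose and served here as a measure of dim signal. The 95th percentile over 1178 such receptor genes lay at 7.25 for NGE, at 6.99 for pChePS_GC and at 6.86 for pCP_GC. By group mean, 12 serpins lay above this level in NGE, 15 in pChePS_GC and 18 in pCP_GC. In all, 19 lay above it in at least 1 group and 28 in none. The dim signal itself was lower in the tumours, with a median receptor change of -0.15 in pChePS_GC and -0.22 in pCP_GC, and 17.9% and 35.7% of receptor genes passed as lower.

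**Figure D1:**
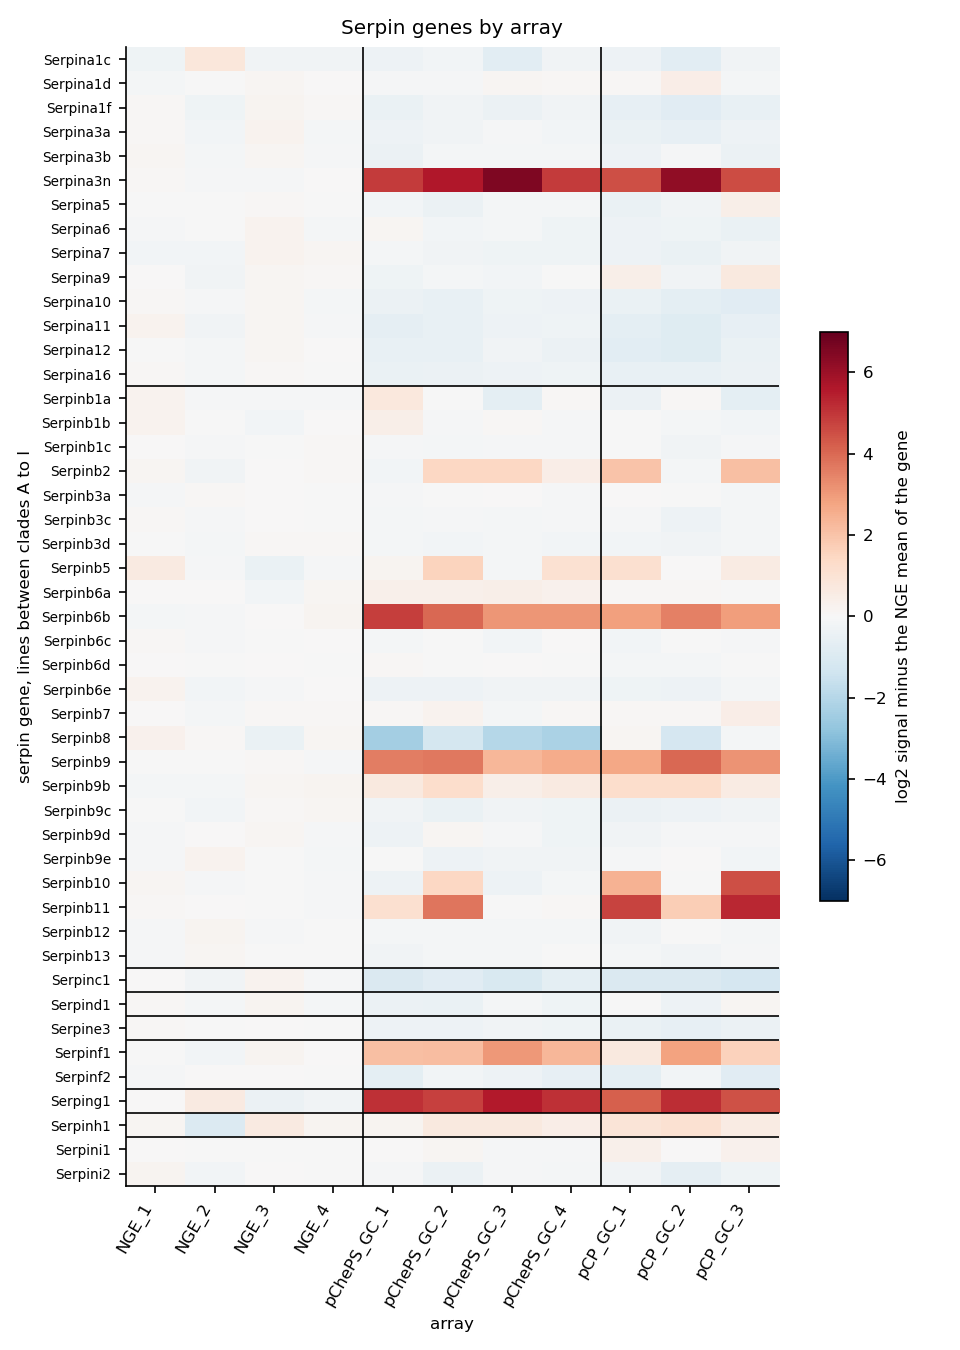
Heat map of the log2 value of each of the 47 serpin genes (rows, by clade) in each of the 11 arrays (columns, by group), minus the mean of the 4 NGE arrays, on a colour scale from -7 to 7. Strong colour is limited to a few rows such as Serpina3n, whose tumour arrays sit 4.53 or more above the NGE mean, while most rows of clades A and B stay near 0.

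Among the secreted inhibitors of plasma, Serpina3n and Serping1 rose most. Serpina3n is a mouse counterpart of human antichymotrypsin and an acute-phase protein that inhibits granzyme B, cathepsin G and leukocyte elastase. It stood at 7.36, 7.21, 7.22 and 7.33 on the NGE arrays, at 12.15, 12.89, 13.83 and 12.19 on the pChePS_GC arrays, and at 11.81, 13.46 and 11.86 on the pCP_GC arrays. Every tumour array lay far above every NGE array, and the tumour groups overlapped. The rise was 5.48 ± 0.42 (SE, n = 4 and 4) in pChePS_GC, a 44.8-fold difference with a limma adjusted p of 5.59e-06. It was 5.10 ± 0.45 (SE, n = 3 and 4) in pCP_GC, or 34.2-fold, with an adjusted p of 1.90e-05. In bulk tissue, more cells of a type and more RNA per cell cannot be told apart, and the fibroblast, macrophage and endothelial markers given above were also higher in both tumour groups. Their part in this and the other rises was not tested.

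The other measured Serpina3 copies did not rise. Serpina3a had a difference of -0.22 in pChePS_GC (adjusted p = 0.128) and fell by 0.46 in pCP_GC (limma adjusted p = 0.00934), and Serpina3b had differences of -0.20 and -0.28, neither of which passed (adjusted p = 0.163 and 0.0646). Both lay at the dim level in every group. The copies are close in sequence, and how far each probe set separates them was not tested. The promoter of Serpina3n is shown because this gene had the largest rise. It was searched on both strands for TTCNNNGAA (bound by STAT factors), TGACTCA (bound by AP-1) and TGANTCA, a looser form with any middle base. The interferon-stimulated response element, taken as GAAA followed after any 2 bases by GAAA, was also searched for. None was found in the 250 bases before the transcript start used. The stretch printed ends at 188 bases, because RefSeq places the gene start inside that window. Promoter sequences are from RefSeq, build GRCm38.p6, plus strand unless stated, and 41 of the 47 genes matched an entry.
Serpina3n, chr12:104406458-104406645: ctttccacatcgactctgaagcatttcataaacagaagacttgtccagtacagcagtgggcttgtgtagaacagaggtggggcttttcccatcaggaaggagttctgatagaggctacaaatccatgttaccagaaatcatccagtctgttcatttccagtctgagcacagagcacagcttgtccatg

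Serping1 stood at 7.54, 8.15, 7.12 and 7.31 on the NGE arrays, at 12.64, 12.32, 13.07 and 12.63 on the pChePS_GC arrays, and at 11.70, 12.72 and 12 on the pCP_GC arrays. The lowest tumour array stood 3.55 above the highest NGE array. The rise was 5.14 ± 0.27 (SE) or 35.2-fold in pChePS_GC (limma adjusted p = 4.51e-07) and 4.61 ± 0.29 (SE) or 24.5-fold in pCP_GC (adjusted p = 2.53e-06). The difference between the tumour groups was 0.52, with a 95% interval from -0.11 to 1.16, and did not pass (adjusted p = 0.373). Serping1 blocks the complement proteases C1r and C1s, and of 12 measured genes of early complement 10 rose and 2 fell in pChePS_GC, and 10 rose and 1 fell in pCP_GC. C1qb, a chain of the C1q recognition molecule that is also among the macrophage markers, rose by 4.11 and 3.91. C1s1, which encodes C1s, rose by 3.51 and 4.21, and C4b, its substrate, by 3.12 and 3.58.

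**Figure D2:**
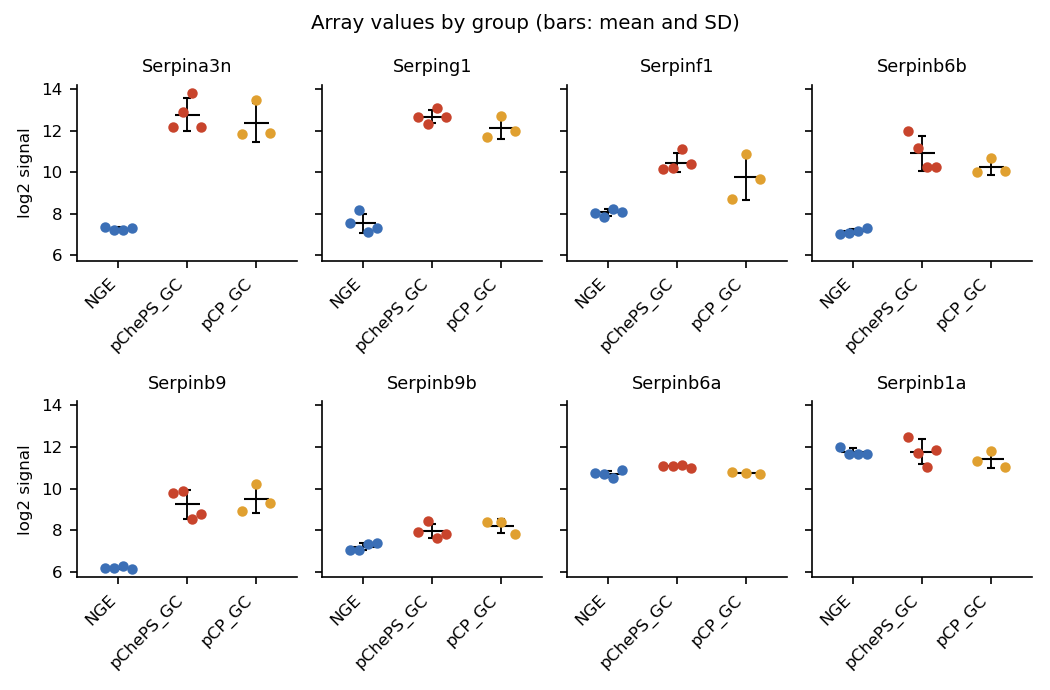
Log2 value of 8 serpin genes in each array (points), by group, with bars for the mean ± SD (n = 4, 4 and 3). Serpina3n, Serping1, Serpinf1, Serpinb6b, Serpinb9 and Serpinb9b have every tumour point above every NGE point, while the Serpinb1a points overlap and Serpinb6a is higher in pChePS_GC only, by 0.36 against NGE.

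Clade F gave a rise and a fall. Serpinf1 encodes PEDF, a secreted glycoprotein that inhibits new vessel growth and no protease. It stood at 8.05, 7.86, 8.23 and 8.10 on the NGE arrays, at 10.14, 10.20, 11.09 and 10.41 on the pChePS_GC arrays, and at 8.72, 10.89 and 9.65 on the pCP_GC arrays. All tumour arrays lay above NGE, with pCP_GC spread over more than 2 units. The rise was 2.40 ± 0.38 (SE) or 5.27-fold in pChePS_GC (limma adjusted p = 0.000695) and 1.69 ± 0.41 (SE) or 3.24-fold in pCP_GC (adjusted p = 0.00601). Without the second pCP_GC array the latter was 1.13 and still passed (adjusted p = 0.0141). Serpinf2 fell from a mean of 8.29 ± 0.07 (SD, n = 4) in NGE to 7.83 ± 0.22 (SD, n = 4) in pChePS_GC and 7.73 ± 0.31 (SD, n = 3) in pCP_GC, changes of -0.45 and -0.56 (limma adjusted p = 0.0261 and 0.0108). NGE overlapped neither tumour group, but the pChePS_GC call was lost without NGE 2, 3 or 4 or without pChePS_GC 1 or 4 (adjusted p = 0.0502 to 0.0644). With arrays centred on the receptor genes both calls were lost, at -0.29 and -0.34 (adjusted p = 0.223 and 0.151).

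Serpinf2 inhibits plasmin, which plasminogen activators release. The list for plasminogen activation, with 11 measured genes, also held the coagulation genes F3 and Thbd. Of the 11, 7 rose, F3 and Thbd among them, and 2 fell in each tumour group, with medians of 1.49 and 1.40. Plat, the tissue plasminogen activator, rose by 3.66 in pChePS_GC and 2.14 in pCP_GC. F3, tissue factor, rose by 3.09 and 3.24, and Thbd, the thrombin-binding receptor thrombomodulin, by 1.77 and 3.04.

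The thrombin inhibitors did not rise. Serpinc1 stood at 7.87, 7.63, 8.09 and 7.79 on the NGE arrays, at 6.84, 7.05, 6.80 and 7.19 on the pChePS_GC arrays, and at 6.85, 6.85 and 6.68 on the pCP_GC arrays. All 7 tumour arrays lay below all NGE arrays, and both tumour means were below the receptor level. It fell by 0.88 in pChePS_GC (SE 0.12, limma adjusted p = 0.000283) and by 1.05 in pCP_GC (SE 0.13, adjusted p = 0.000163). Serpind1 stood at 7.26, 7.01, 7.33 and 7.03 on the NGE arrays, at 6.75, 6.71, 7.04 and 6.84 on the pChePS_GC arrays, and at 7.11, 6.81 and 7.29 on the pCP_GC arrays. Its groups overlapped, and changes of -0.32 and -0.09 did not pass (limma adjusted p = 0.0586 and 0.609). The pChePS_GC value lay close to the threshold and passed without NGE 2, pChePS_GC 3, pCP_GC 2 or pCP_GC 3 (adjusted p = 0.036 to 0.0497).

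Coagulation genes other than F3 and Thbd moved in both directions: of 19 measured, 6 rose and 4 fell in pChePS_GC, and 5 rose and 5 fell in pCP_GC. F2r, the main thrombin receptor, rose by 3.61 and 3.53, Pros1, the cofactor protein S, by 2.71 and 2.87, and Tfpi, an inhibitor of the tissue factor pathway, by 2.11 and 2.23. Hepatocyte markers were checked because the liver makes most plasma serpins: of 9, 4 fell in pChePS_GC and 5 in pCP_GC. Their array means were 9.09 to 9.14 in NGE, 7.76 to 8.14 in pChePS_GC and 8.34 to 8.52 in pCP_GC, and 3 of the 9 were at or below the receptor level in every group.

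Apart from Serpina3n, no clade A gene rose, although Serpina9 (0.28 in pCP_GC, limma adjusted p = 0.207) passed there with quantile normalization, with array weights, with centring on receptor genes and without pCP_GC 2. Of the other 13, 5 fell in pChePS_GC and 8 in pCP_GC, with medians of -0.24 and -0.46 and the largest fall at 0.69. Over all genes 23.4% and 31.8% fell, and over the receptor genes 17.9% and 35.7%. Serpina10, the inhibitor of coagulation factor Xa that uses protein Z, was the only one of these 13 above the receptor level. It averaged 7.71 ± 0.13 (SD, n = 4) in NGE, 7.32 ± 0.08 (SD, n = 4) in pChePS_GC and 7.07 ± 0.16 (SD, n = 3) in pCP_GC, with falls of 0.39 and 0.65 (limma adjusted p = 0.00989 and 0.000863). The other 12 included Serpina6, which encodes the corticosteroid-binding globulin, Serpina7, the X-linked gene of the thyroxine-binding globulin, and Serpina12, known as vaspin. All 12 stayed at the dim level in each group.

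These small falls depended on scaling. When every array was centred on the receptor genes, a setting added after the data were seen, the count of falling serpins went from 11 to 2 in pChePS_GC and from 13 to 7 in pCP_GC. Serpinb8 and Serpinc1 were the 2 that remained in pChePS_GC. The numbers that rose and fell were then 8 and 2, and 13 and 7. Centring on array medians gave 6 and 26 in pChePS_GC and 8 and 24 in pCP_GC, and quantile normalization 7 and 8, and 11 and 8. Scaling moved all genes, not only serpins. The median change over all genes shifted by 0.17 and 0.22 with receptor centring. It shifted by -0.17 and -0.21 with median centring, and by 0.03 in each with quantile normalization. The shares of all genes that passed under these scalings are not given here, so these counts show no trait of serpins. Among the 28 members at the dim level in every group, 6 fell and 0 rose in pChePS_GC, with changes from -0.45 to 0.08. In pCP_GC 9 fell and 0 rose, with changes from -0.69 to 0.28. Of the receptor genes, 17.9% and 35.7% passed as lower in these comparisons. The median of the 28 was -0.17 in each, beside the receptor medians of -0.15 and -0.22.

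Clade E and clade I gave small changes of this size. Serpine3 stood at 7.74, 7.63, 7.71 and 7.66 on the NGE arrays, at 7.31, 7.31, 7.44 and 7.39 on the pChePS_GC arrays, and at 7.19, 7.09 and 7.25 on the pCP_GC arrays. The 3 groups did not overlap. The falls were 0.32 (SE 0.07, limma adjusted p = 0.00588) and 0.51 (SE 0.08, adjusted p = 0.000643), and with centring on the receptor genes the first was -0.16 and did not pass (adjusted p = 0.13). Serpini1, neuroserpin, inhibits tissue plasminogen activator. It stood at 6.01, 5.95, 5.94 and 5.96 on the NGE arrays, at 6.02, 6.13, 5.91 and 5.89 on the pChePS_GC arrays, and at 6.30, 6 and 6.26 on the pCP_GC arrays, within the dim range. Its changes were 0.02 and 0.22 and did not pass (limma adjusted p = 0.873 and 0.0762). The latter depended on scaling: it was 0.01 with arrays centred on their medians (adjusted p = 0.961), and it passed at 0.47 with quantile normalization (0.00303), 0.44 with centring on the receptor genes (0.00702), 0.29 with array weights (0.0046) and 0.31 without pCP_GC 2 (0.0245). Serpini2, the other clade I gene, averaged 5.58 ± 0.15 (SD, n = 4) in NGE and 5.18 ± 0.19 (SD, n = 3) in pCP_GC, where it fell by 0.41 (limma adjusted p = 0.0205), a call lost without NGE 1, without pCP_GC 2, with quantile normalization and with centring on the receptor genes. Its difference in pChePS_GC, -0.18, did not pass (adjusted p = 0.225).

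**Figure D3:**
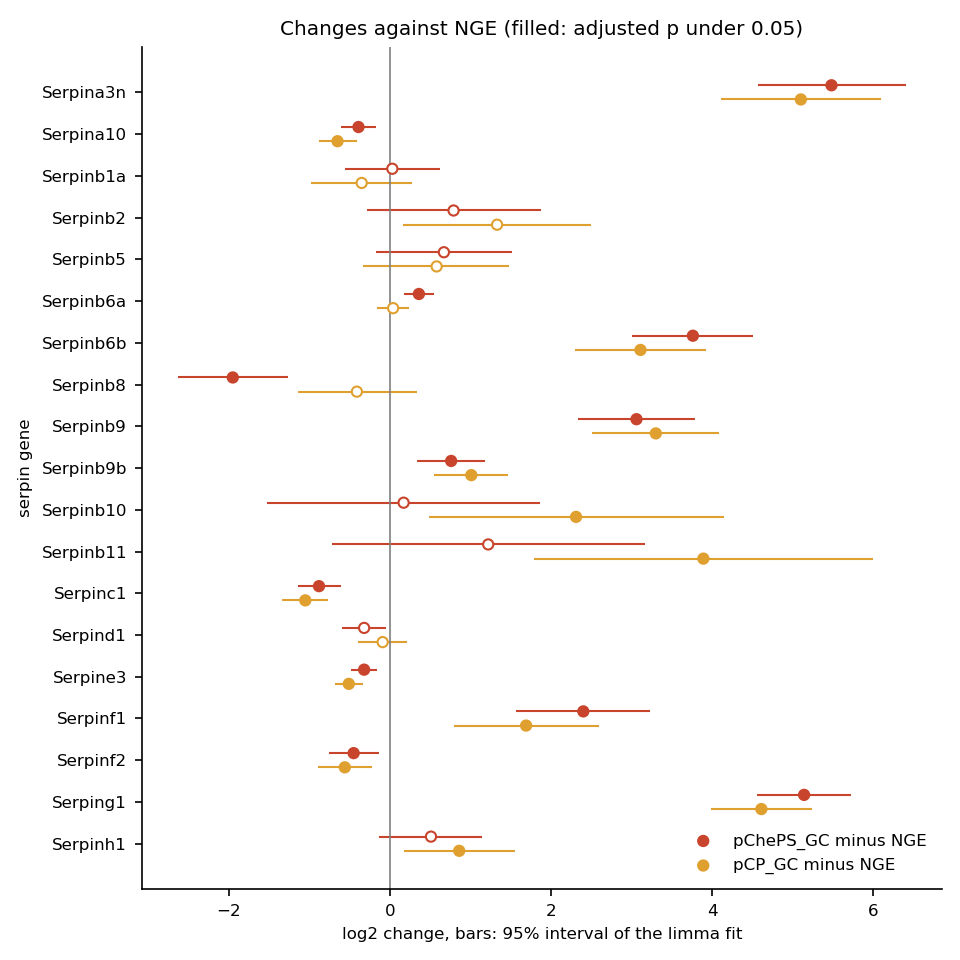
Log2 change against NGE, with its 95% interval from limma, for the 19 serpin genes above the receptor level in at least 1 group, in pChePS_GC and in pCP_GC. Filled points have an adjusted p under 0.05; Serpina3n and Serping1 lie farthest to the right, at 5.48 and 5.14 in pChePS_GC, and Serpinb8 farthest to the left, at -1.95 in pChePS_GC.

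The intracellular clade B inhibitors lie in clusters on chromosomes 13 and 1. Of the 13 genes on chromosome 13, 4 rose and 2 fell in pChePS_GC, and 3 rose and 1 fell in pCP_GC, with medians of 0.02 and -0.10. Over all genes 18.7% rose and 23.4% fell in pChePS_GC, and 20.0% rose and 31.8% fell in pCP_GC. Serpinb6b stood at 7.03, 7.07, 7.15 and 7.32 on the NGE arrays, at 11.98, 11.15, 10.24 and 10.23 on the pChePS_GC arrays, and at 10.02, 10.69 and 10.04 on the pCP_GC arrays. The NGE mean, 7.14, lay below the receptor level, and every tumour array was above the highest NGE array by 2.70 or more. The rise was 3.76 ± 0.34 (SE) or 13.5-fold in pChePS_GC (limma adjusted p = 1.91e-05) and 3.11 ± 0.37 (SE) or 8.62-fold in pCP_GC (adjusted p = 0.000129). A fold against a dim level depends on the signal that the array gives without transcript.

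Serpinb9 inhibits granzyme B and protects the cells that carry it from their own granules. It stood at 6.16, 6.16, 6.27 and 6.11 on the NGE arrays, at 9.78, 9.86, 8.53 and 8.78 on the pChePS_GC arrays, and at 8.90, 10.21 and 9.32 on the pCP_GC arrays. All tumour arrays lay at 8.53 or more, and all NGE arrays were dim. The rise was 3.06 ± 0.33 (SE) or 8.35-fold in pChePS_GC (limma adjusted p = 5.84e-05) and 3.30 ± 0.36 (SE) or 9.85-fold in pCP_GC (adjusted p = 6.88e-05). Its promoter is shown because it held a match to the interferon-stimulated response element, in capitals as read on the opposite strand. Such a match was found in 2 of the 41 serpin promoters and in 3.0% of 27025 promoters of that length. The other serpin with a match was Serpinb6a, whose changes were 0.36 in pChePS_GC and 0.04 in pCP_GC.
Serpinb9, chr13:33004485-33004514: ctcctgctacTTTCACTTTCtctaaggacc

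The neighbouring copy Serpinb9b stood at 7.05, 7.04, 7.32 and 7.38 on the NGE arrays, at 7.91, 8.45, 7.63 and 7.82 on the pChePS_GC arrays, and at 8.41, 8.41 and 7.80 on the pCP_GC arrays. The lowest tumour array, at 7.63, was above the highest NGE array, at 7.38. It rose by 0.76 (SE 0.19, limma adjusted p = 0.0104) and 1.01 (SE 0.21, adjusted p = 0.0027). The 3 remaining Serpinb9 copies were dim in all groups, and Serpinb9c fell by 0.31 and 0.34. How far the probe sets of Serpinb9 and Serpinb9b, which are close in sequence, separate them was not tested.

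Proteases of leukocytes and mast cells rarely rose. Of 15 measured, all of them serine proteases but Cpa3, a carboxypeptidase that passed in neither comparison, 0 rose and 2 fell in pChePS_GC, and 1 rose and 4 fell in pCP_GC. Of the 15, 5 were at or below the receptor level in every group. Gzmb, the granzyme B gene, was chosen after its values were seen: it averaged 6.57, 6.52 and 6.60 in the 3 groups, each mean at the dim level, with changes of -0.04 and 0.03 that did not pass (limma adjusted p = 0.915 and 0.952). These means hide a spread. Gzmb read 7.52 in pChePS_GC 4 and 7.25 in pCP_GC 3, above the receptor levels of 6.99 and 6.86. The other tumour arrays read 6.16 to 6.31, and the NGE arrays 6.52 to 6.68. Mcpt4, a mast cell chymase, had a change of 0.34 in pChePS_GC and rose by 1.61 in pCP_GC. Mcpt1, another, had changes of -1.29 and 0.11 that did not pass, and Gzmm, granzyme M, fell by 0.51 and 0.58. The Mcpt1 values spread widely within groups, from 6.13 to 9.10 in pChePS_GC and from 7.26 to 9.72 in pCP_GC. Of 8 T and natural killer cell markers, 0 rose in either tumour group, 1 fell in pChePS_GC and 2 fell in pCP_GC, and 4 were at or below the receptor level in every group. Among 8 neutrophil markers, 5 rose and 2 fell in each tumour group. Their array means were 6.96 to 7.16 in NGE, 8.34 to 8.77 in pChePS_GC and 7.58 to 8.35 in pCP_GC.

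Several clade B serpins also inhibit cysteine proteases, and most of those rose. Of 8 measured, 7 rose in pChePS_GC and 6 in pCP_GC, and 0 fell, with medians of 2.56 and 2.03. The lysosomal proteases Ctss and Ctsk rose by 3.91 and 2.83 in pChePS_GC and by 3.38 and 2.79 in pCP_GC. Casp4, an inflammatory caspase, rose by 2.69 and 2.15.

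Serpinb6a and Serpinb1a, also of the chromosome 13 cluster, were bright in all samples, while Serpinb1b, Serpinb1c, Serpinb6c, Serpinb6d and Serpinb6e were at the dim level in every group. Serpinb6a, a broad intracellular inhibitor found in many tissues, stood at 10.73, 10.72, 10.53 and 10.87 on the NGE arrays, at 11.08, 11.09, 11.12 and 11.01 on the pChePS_GC arrays, and at 10.81, 10.77 and 10.68 on the pCP_GC arrays. The pChePS_GC arrays lay above both other groups, while NGE and pCP_GC overlapped. It rose by 0.36 in pChePS_GC (SE 0.08, limma adjusted p = 0.00686) and the change in pCP_GC was 0.04 (adjusted p = 0.755). The difference between tumour groups, 0.33 with a 95% interval from 0.13 to 0.53, did not pass (adjusted p = 0.152). With arrays centred on their medians the pChePS_GC rise was 0.19 and did not pass (adjusted p = 0.1), while the pCP_GC value turned to -0.18.

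Serpinb1a inhibits neutrophil elastase, cathepsin G and proteinase 3. It stood at 12.02, 11.66, 11.65 and 11.68 on the NGE arrays, at 12.49, 11.73, 11.06 and 11.84 on the pChePS_GC arrays, and at 11.35, 11.82 and 11.04 on the pCP_GC arrays. The groups overlapped. Changes of 0.03 (95% interval -0.56 to 0.62) and -0.35 (-0.98 to 0.28) did not pass (limma adjusted p = 0.933 and 0.323), and the first was -0.14 with arrays centred on their medians.

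Among the 11 clade B genes of chromosome 1, several differed widely between arrays of a tumour group. In all, 0 rose and 1 fell in pChePS_GC, and 2 rose and 0 fell in pCP_GC, with medians of -0.05 and -0.06. The shares of all genes that rose and fell were 18.7% and 23.4% in pChePS_GC, and 20.0% and 31.8% in pCP_GC. By gene order in RefSeq, Serpinb11, Serpinb7, Serpinb2, Serpinb10 and Serpinb8 follow each other among the measured members. Serpinb11 stood at 4.76, 4.69, 4.65 and 4.60 on the NGE arrays, at 5.77, 8.43, 4.62 and 4.77 on the pChePS_GC arrays, and at 9.39, 6.37 and 9.93 on the pCP_GC arrays. It was high in pCP_GC 1 and 3 and in pChePS_GC 2, while pChePS_GC 3 and 4 were at the level of NGE. The rise in pCP_GC was 3.89 ± 0.95 (SE) or 14.8-fold (limma adjusted p = 0.00652), with 3.21 to 4.99 over 22 alternatives, in each of which it passed. The change of 1.22 in pChePS_GC did not pass (adjusted p = 0.273) and was 0.38 without pChePS_GC 2.

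Serpinb10, an inhibitor known from blood cell precursors, stood at 5.12, 4.93, 4.99 and 4.94 on the NGE arrays, at 4.67, 6.43, 4.67 and 4.89 on the pChePS_GC arrays, and at 7.45, 4.95 and 9.53 on the pCP_GC arrays. Only pCP_GC 1 and 3 rose above the dim level, and pCP_GC 2 was inside the NGE range. The rise in pCP_GC was 2.31 ± 0.83 (SE, limma adjusted p = 0.0372). It lost its call in 8 of 22 alternatives, among them without each NGE array (adjusted p = 0.0648 to 0.071), without pCP_GC 1 (0.088) and without pCP_GC 3 (1.20, adjusted p = 0.148). Without pCP_GC 2 it was 3.49 (adjusted p = 0.00182). The change in pChePS_GC was 0.17 (adjusted p = 0.872).

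Serpinb2, an intracellular and secreted inhibitor of plasminogen activators, stood at 6.56, 6.19, 6.42 and 6.48 on the NGE arrays, at 6.21, 7.84, 7.88 and 6.87 on the pChePS_GC arrays, and at 8.39, 6.30 and 8.53 on the pCP_GC arrays. The arrays pCP_GC 1 and 3 were again high and pCP_GC 2 was within NGE. Changes of 0.79 and 1.33 did not pass (limma adjusted p = 0.207 and 0.0555), and the second was 2.05 without pCP_GC 2 (adjusted p = 0.00417) and passed in 7 of 23 alternatives, also without pChePS_GC 1 (0.0385). Serpinb7 stayed between 3.91 and 4.51 in all 11 arrays.

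**Figure D4:**
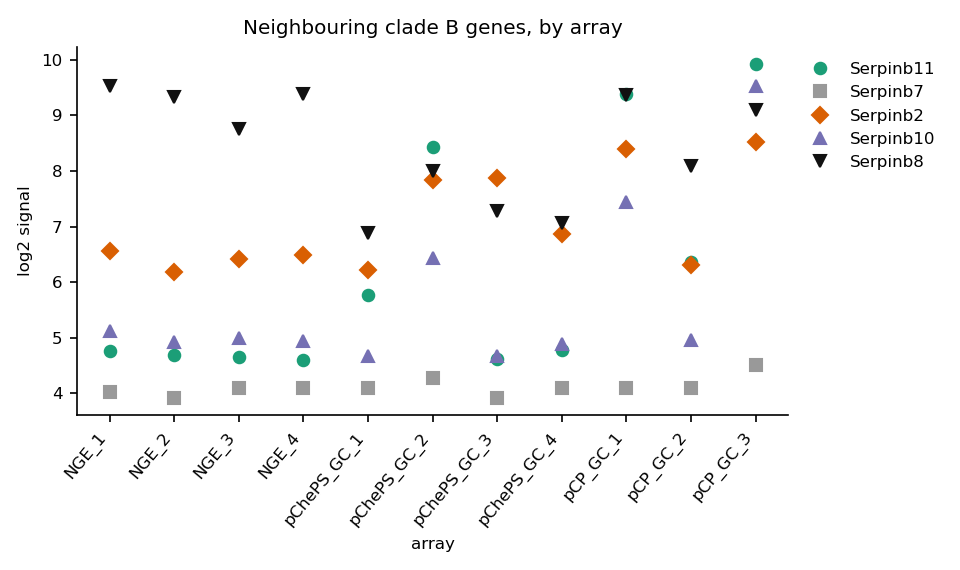
Log2 value in each of the 11 arrays of 5 clade B serpin genes that follow each other on chromosome 1 among the measured members (1 marker a gene, arrays in order within groups). Serpinb11, Serpinb10 and Serpinb2 are high in pCP_GC 1 and 3 and lower in pCP_GC 2, where Serpinb10 reads 4.95, while Serpinb8 is low in pChePS_GC, at 6.88 to 8.

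Serpinb8, an intracellular inhibitor of furin, moved the other way. It stood at 9.53, 9.34, 8.76 and 9.38 on the NGE arrays, at 6.88, 8, 7.28 and 7.06 on the pChePS_GC arrays, and at 9.37, 8.09 and 9.09 on the pCP_GC arrays. Every pChePS_GC array lay below every other array, and NGE and pCP_GC overlapped. It fell by 1.95 in pChePS_GC (SE 0.31, 3.86-fold, limma adjusted p = 0.000719). The change in pCP_GC was -0.41, with a 95% interval from -1.14 to 0.33 (adjusted p = 0.322). Of 9 glandular epithelium markers, 2 rose and 4 fell in pChePS_GC, and 1 rose and 0 fell in pCP_GC. Their array means were 13.62 to 13.65 in NGE, 11.69 to 13.17 in pChePS_GC and 13.16 to 13.44 in pCP_GC. The part of these cells in the Serpinb8 fall was not tested.

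Squamous epithelium, which lines the mouse forestomach, is known for several chromosome 1 serpins, and its markers are given for that reason. Of 11, 2 rose and 2 fell in pChePS_GC, and 1 rose and 2 fell in pCP_GC, with array means of 7.23 to 7.70 in NGE, 7.32 to 8.19 in pChePS_GC and 7.15 to 7.92 in pCP_GC, and 2 at or below the receptor level in every group. Ivl, involucrin, stood at 7.81, 7.26, 7.64 and 7.46 on the NGE arrays, at 10.21, 11.13, 8.34 and 8.68 on the pChePS_GC arrays, and at 11.65, 8.5 and 11.17 on the pCP_GC arrays. This marker was singled out after its values were seen. Ivl was highest in pCP_GC 1, pCP_GC 3 and pChePS_GC 2, where Serpinb11 was also highest, at 9.39, 9.93 and 8.43. Ivl lay above every NGE array in all 7 tumour arrays. These include pChePS_GC 1, 3 and 4 and pCP_GC 2, where Serpinb11 was 5.77, 4.62, 4.77 and 6.37. The list mean was 7.85, 8.19, 7.32 and 7.43 in pChePS_GC 1 to 4, and 7.92, 7.15 and 7.83 in pCP_GC 1 to 3. The list's medians were -0.20 and -0.14, and its part in the Serpinb11 result was not tested. Serpinb5, known as maspin and made by many epithelia, averaged 10.44 ± 0.47 (SD, n = 4), 11.12 ± 0.77 (SD, n = 4) and 11.02 ± 0.56 (SD, n = 3). Its changes of 0.67 and 0.58 did not pass (limma adjusted p = 0.17 and 0.258), and the second was 0.85 and passed with array weights (adjusted p = 0.0322).

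The promoters of the chromosome 1 genes are shown because these neighbours differed between arrays. A match to TGANTCA, on either strand, lay within 250 bases before the start of 7 of the 10 chromosome 1 clade B genes with an entry, of 2 of the 31 other serpins with an entry, and of 6.9% of 27025 promoters. The 3 without a match were Serpinb3a, Serpinb3c and Serpinb3d. The form TGACTCA, counted on both strands and contained in TGANTCA, was found before Serpinb7 and Serpinb8 only among the 10, and in 4.4% of all promoters. Serpinb7, which stayed dim, and Serpinb8, which fell in pChePS_GC, hold it alike. The motifs were chosen with the values known, and a match is only these letters in this window. In each stretch the match is in capitals.
Serpinb5, chr1:106861025-106861051: aagttgggccTGAATCAtgtcttccaa
Serpinb12, chr1:106934394-106934420: aaaaacaatcTGATTCAcgatcattat
Serpinb7, chr1:107422634-107422660: agggagtgtcTGAGTCAgaggctttat
Serpinb2, chr1:107511319-107511345: agtaaaatgtTGAATCAtacaaagaat
Serpinb8, chr1:107589973-107589999: gtgggaagtgTGAGTCAcagagtgttc
Serpinb11, chr1:107362064-107362313: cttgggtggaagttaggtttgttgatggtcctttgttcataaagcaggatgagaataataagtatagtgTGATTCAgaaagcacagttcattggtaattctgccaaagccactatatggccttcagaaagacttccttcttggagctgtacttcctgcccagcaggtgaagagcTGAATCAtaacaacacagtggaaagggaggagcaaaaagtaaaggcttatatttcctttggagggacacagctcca
Serpinb10, chr1:107528753-107528993: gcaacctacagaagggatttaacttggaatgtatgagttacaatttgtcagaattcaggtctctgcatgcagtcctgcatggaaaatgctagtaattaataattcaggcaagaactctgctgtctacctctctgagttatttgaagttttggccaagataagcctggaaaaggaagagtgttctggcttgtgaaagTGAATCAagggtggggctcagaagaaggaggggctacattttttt

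Serpinb10 and Serpinb11, the 2 that rose in pCP_GC, are given with the longer stretch before the start. That of Serpinb10 ends at 241 bases, because RefSeq places the gene start inside the searched window. Serpinb11 held 2 matches to TGANTCA and Serpinb10 held 1, none of them the form TGACTCA.

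Serpinh1 acts in the endoplasmic reticulum, where it holds procollagen in its folded form. It stood at 9.45, 8.32, 9.94 and 9.49 on the NGE arrays, at 9.49, 9.97, 9.99 and 9.77 on the pChePS_GC arrays, and at 10.20, 10.39 and 9.90 on the pCP_GC arrays. The groups overlapped, and NGE 2 was the lowest array. The change of 0.51 in pChePS_GC did not pass (limma adjusted p = 0.169). The rise of 0.86 in pCP_GC (SE 0.31, adjusted p = 0.0382) was lost in 10 of 24 alternatives, among them leaving out NGE 1, NGE 4, pCP_GC 1 or pCP_GC 2 (adjusted p = 0.053 to 0.119) and quantile normalization (0.62, adjusted p = 0.138). Without NGE 2 it was 0.53 and passed (adjusted p = 0.0373), and the pChePS_GC value was 0.18 (adjusted p = 0.416).

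Genes of collagens and of proteins that fold, modify or process them rose more widely than Serpinh1. Of 20 measured, 15 rose and 2 fell in pChePS_GC, and 15 rose and 3 fell in pCP_GC, with medians of 1.33 and 1.55. Col1a1, also a fibroblast marker, rose by 3.36 and 3.07, Col1a2 by 3.35 and 3.02, and Plod2, a lysyl hydroxylase of collagen, by 3.19 and 2.81.

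Protease inhibitors outside the serpin family were measured by 28 genes, of which 9 rose and 2 fell in pChePS_GC, and 11 rose and 6 fell in pCP_GC, with medians of 0.19 and 0.21. Timp1 and Timp3, inhibitors of matrix metalloproteinases, rose by 5.42 and 4.41 in pChePS_GC and by 3.87 and 4.09 in pCP_GC. Wfdc2, a secreted epithelial protein of the whey acidic protein family, rose by 3.44 and 3.36. Of 16 epithelial serine proteases, 3 rose and 4 fell in pChePS_GC, and 1 rose and 7 fell in pCP_GC. Among them Htra1 rose by 1.39 and 2.21, and Prss23 had a change of -0.63 that did not pass in pChePS_GC and fell by 1.24 in pCP_GC.

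Between the tumour groups, 0 of 47 serpins passed in limma, beside 0.366% of all genes (73 genes, 0.115% higher and 0.251% lower in pChePS_GC), while 8 of the 47 had an unadjusted p under 0.05, beside 3294 of 19938 genes. Changes of pChePS_GC minus pCP_GC ran from -2.67 for Serpinb11 to 0.70 for Serpinf1, with a median of 0.07 beside 0.04 over all genes. The lowest adjusted p was 0.0887, for Serpinb8, at -1.54 ± 0.33 (SE) with a 95% interval from -2.28 to -0.81. This difference passed without pChePS_GC 2 (-1.77, adjusted p = 0.048), without pCP_GC 2 (-1.92, 0.0204) and with array weights (-1.73, 0.0321), over a range of adjusted p from 0.0204 to 0.297 in 24 alternatives. For Serpinb11 the difference was -2.67 (95% interval -4.77 to -0.57, adjusted p = 0.218), and for Serpinb10 it was -2.15 (-3.98 to -0.32, adjusted p = 0.244), which became -3.32 and passed without pCP_GC 2 (adjusted p = 0.0333). For Serpina3n the difference was 0.39, with an interval from -0.60 to 1.38, and for Serpinb6b 0.65, from -0.16 to 1.46, intervals that hold differences of more than 2-fold.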

How the data were processed

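RNA of 11 mouse stomach samples (4 NGE, 4 pChePS_GC and 3 pCP_GC) was prepared with an AllPrep kit and labelled by the Affymetrix procedure, per the labels' protocols. The authors deposited log2 values for 35556 probe sets. The submitters' processing notes name Affymetrix Expression Console; its version is not given in the sources used here, nor are its settings or the annotation build. The deposited log2 values ran from 2.88 to 14.6, with array medians of 7.63 to 7.81, and were not normalized again. GEO's platform annotation gave 21789 probe sets 1 symbol, 1621 several and 12146 none; the 1-symbol probe set with the highest mean over 11 arrays stood for each of 19938 genes. The number of arrays limits the precision, as array values carry no counts.

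The groups were compared with limma 3.58.1 in R 4.3.3, in a single fit of all 3 groups with no covariate, and p-values were adjusted over all genes by Benjamini-Hochberg. A gene passed at an adjusted p under 0.05. On simulated data of 19938 genes, 200 of them changed, the fit recovered 75% of 2-fold and 38% of 1.5-fold changes for pChePS_GC against NGE, 70% and 35% for pCP_GC against NGE, and 79% and 44% between the tumour groups. Of the 122, 112 and 132 genes called there, 9, 7 and 9 were false. In the data far more genes passed against NGE, 42.1% and 51.8%, which changes the adjusted threshold. The simulated recovery therefore does not give the recovery in those 2 comparisons. Values in every array are given for serpins that passed with at least a 2-fold change and for the brightest gene of each clade (none passed between the tumour groups, which would also have named it), with a few added for comparison after their values were seen (Serpinb2, Serpinb6a and the marker Ivl). Up to 3 genes of each list are named, those with the largest mean change over both tumour groups; the members, the gene and marker lists and the motifs were chosen with earlier results of these data known. Alternatives were other variance priors, scalings, filters on dim genes, array weights, thresholds, the replicate number as a block and leaving out each array. Of the 47 serpin symbols, 47 matched RefSeq names; RefSeq (GRCm38.p6) was used only for names, gene order and promoters. Probe sets with several symbols stayed out of the tests.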

Additional observations from a re-analysis of the deposited data

Results flagged for a closer look

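A single array stood apart from the others of its group for 2 of 40 sets of 4 arrays tested among the named serpins; chance marks about 1 in 20 such sets. Serpinb10 in pChePS_GC 2 read 6.43, while the other 3 arrays of the group read 4.67 to 4.89. Serpinb1a in NGE 1 read 12.02, while the other 3 NGE arrays read 11.65 to 11.68.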

How the results depend on the processing

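Over 60 results of named serpins, 1313 of 1398 alternatives kept the direction and the side of the threshold, 40 lost the call, 23 gained one and 22 turned the sign. Counts of falling serpins moved most. In pChePS_GC against NGE the 11 became 26 with arrays centred on their medians, 5 without the dimmest 25% of genes, 1 without the dimmest 50%, 6 at an adjusted p under 0.01, 1 at 2-fold and 2 with arrays centred on the receptor genes, a setting chosen after seeing the data. In pCP_GC against NGE the 13 became 24, 4, 0, 8, 1 and 7 under the same settings and 8 with quantile normalization, and the 9 that rose became 5 without the dimmest 50%. The filters test fewer members; other causes were not tested. Between the tumours the 0 that were lower became 1 with array weights. Leaving out each array gave 7 to 7 higher and 7 to 12 lower in pChePS_GC, 7 to 11 and 10 to 16 in pCP_GC, and 0 to 0 and 0 to 3 between the tumours; the lowest count in pChePS_GC, 7, came without NGE 4. The shift of the median over all genes was -0.17 and -0.21 with median centring and 0.17 and 0.22 with receptor centring.

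Signs turned for results that did not pass. In pChePS_GC against NGE, Serpinb10 was -0.01 and Serpinb1a -0.14 with median centring, and Serpini1 -0.16; without single arrays they ran from -0.25 to 0.33, -0.21 to 0.27 and -0.03 to 0.05. In pCP_GC against NGE, Serpinb6a was -0.18 with median centring, -0.06 with quantile normalization, -0.03 with array weights and -0.02 to 0.09 without single arrays; Serpind1 was 0.10 with quantile normalization, 0.03 with array weights, 0.13 with receptor centring and -0.20 to 0.05 without single arrays. Between the tumours, array weights gave Serpinb5 -0.03 and Serpinb9 0.14, and leaving out arrays gave -0.20 to 0.37 and -0.52 to 0.13.

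The labels do not say whether same-numbered arrays share more than a number. The correlation of their deviations was -0.15 to 0.16 over 10 pairs, with 2 over 0.1. Pairs with different numbers ran from -0.38 to 0.32, so these correlations cannot decide whether a pairing exists. With the replicate block, 7 serpins rose and 12 fell in pChePS_GC, 7 rose and 12 fell in pCP_GC, and 0 passed between the tumours. The block ended the pCP_GC calls of Serpinb10 (2.26, adjusted p = 0.0884) and Serpinh1 (0.89, adjusted p = 0.0737) and gave Serpind1 a call in pChePS_GC (-0.32, adjusted p = 0.0176).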

Other observations

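Serpin probe sets with several symbols were left out of the comparisons, and their values are given here. Of 2 probe sets shared by Serpina1a to Serpina1e, the alpha-1-antitrypsin copies, the brighter stood at 7.54, 7.60, 7.82 and 7.55 on the NGE arrays, at 7.30, 8.08, 7.88 and 8.19 on the pChePS_GC arrays, and at 7.35, 7.50 and 7.06 on the pCP_GC arrays. The 3 probe sets shared by Serpinb9d, Serpinb9e, Serpinb9f and Serpinb9g read between 5.18 and 6 in all 11 arrays. The pseudogene Serpina4-ps1 read between 6.08 and 6.76.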
